A study of Mus musculus with 8 samples.

Results

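The 31 genes described here are the mouse dual-specificity phosphatases (24 Dusp genes), the 4 Sprouty genes (Spry) and the 3 Spred genes, taken by symbol from a table of 34536 gene symbols. They were measured by RNA sequencing in mouse cells isolated with a fluorescence sorter from embryoid bodies, which are stem cell aggregates that form many tissues in a dish. By label, libraries A, C, E and G are endocardial (4 libraries), the lining of the heart, and libraries B, D, F and H are endothelial (4 libraries). All 8 share the source, an embryoid body culture, and no treatment is given for either group. No source used here gives the stem cell line, its genotype, the day of culture or the markers of the sort. The labels also do not say whether libraries of a group come from separate cultures, so p-values reflect only how these samples vary among each other, and that variation may be technical.

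Growth factor receptors of the tyrosine kinase class signal through Ras, Raf and MEK to the MAP kinase ERK, and related cascades lead to the kinases JNK and p38. The typical DUSP enzymes, called MAP kinase phosphatases, remove the phosphates that make these kinases active, while Sprouty and Spred proteins act higher up, between the receptor, Ras and Raf. Several of these genes are themselves switched on by ERK, so that they form a negative feedback loop. In vessels, this loop is known to temper the response to VEGF and FGF, and in embryonic stem cells ERK output bears on the exit from pluripotency.

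Promoter sequences of 4 members are shown because Dusp2 was the one member called between the groups, Dusp1 and Dusp5 varied most within the groups among the inducible phosphatases, and Dusp6 is a widely used readout of ERK activity. Each sequence is the stretch of 250 bases before the RefSeq start site (build GRCm38.p6), 5′ to 3′ on the gene's strand. Capitals mark the GC box (GGGCGG), the core of the cyclic AMP response element (TGACG, within the full element TGACGTCA) and the CArG box, on either strand.
Dusp2 promoter, chr2:127335909-127336158 (plus strand): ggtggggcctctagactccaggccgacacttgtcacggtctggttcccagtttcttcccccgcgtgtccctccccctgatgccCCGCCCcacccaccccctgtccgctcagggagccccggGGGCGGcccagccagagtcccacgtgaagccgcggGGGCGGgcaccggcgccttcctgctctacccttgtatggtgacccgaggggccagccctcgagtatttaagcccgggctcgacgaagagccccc
Dusp1 promoter, chr17:26508473-26508722 (minus strand): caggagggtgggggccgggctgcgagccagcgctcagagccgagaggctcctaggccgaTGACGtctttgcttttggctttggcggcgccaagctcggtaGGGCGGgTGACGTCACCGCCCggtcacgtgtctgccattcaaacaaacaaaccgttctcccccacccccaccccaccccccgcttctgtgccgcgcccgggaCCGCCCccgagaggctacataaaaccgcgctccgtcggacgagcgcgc
Dusp5 promoter, chr19:53528895-53529144 (plus strand): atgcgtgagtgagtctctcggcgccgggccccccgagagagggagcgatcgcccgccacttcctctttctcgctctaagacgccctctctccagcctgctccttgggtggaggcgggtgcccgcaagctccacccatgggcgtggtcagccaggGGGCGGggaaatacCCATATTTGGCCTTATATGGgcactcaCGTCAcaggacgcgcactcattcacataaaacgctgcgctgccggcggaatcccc
Dusp6 promoter, chr10:99262981-99263230 (plus strand): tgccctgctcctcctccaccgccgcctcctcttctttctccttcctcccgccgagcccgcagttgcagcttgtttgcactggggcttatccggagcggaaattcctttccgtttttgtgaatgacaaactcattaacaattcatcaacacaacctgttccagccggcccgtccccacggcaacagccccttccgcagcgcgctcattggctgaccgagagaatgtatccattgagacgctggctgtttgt
The Dusp2 promoter held 3 GC boxes and had a GC content of 70.4%, against a median of 62.4% over the 23 members with a promoter entry and 52.0% over all 27025 genes with one. The Dusp1 promoter held a full cyclic AMP response element, whose first base lies 143 bases before the start site. Such an element was found for Dusp1 and Dusp8 among the members and in 1.62% of all promoters, and its core in 7 members and 17.9% of all promoters. The Dusp5 promoter held 2 CArG boxes side by side, a motif found in 1 of the 23 members and 1.40% of all promoters. In the Dusp6 window, none of the 3 marked motifs was found. GC boxes were found in 16 members and 32.9% of all promoters. Further motifs searched were the AP-1 site TGANTCA (1 member, 6.87% of all promoters), the E box CACGTG (2 members, 6.05%), the ETS core CCGGAA (2 members, 12.2%) and TATAAA (0 members, 13.0%). A match is only a run of letters and was not tested as a site.

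Total counts ran from 6677667 to 11369363 per library, so that 3 counts, the limit a count of 0 allows, corresponded to between 0.268 and 0.438 CPM (counts scaled to a total of 1000000, on TMM-scaled totals). This limit covers counting error only. The endothelial label was checked against 14 endothelial markers, all of which were detected in both groups. Their summed level was 1447 to 1874 CPM in the endocardial and 419 to 878 CPM in the endothelial libraries, and 10 of the 14 were called higher in the endocardial group and 0 lower. The libraries labelled endothelial thus held less of the endothelial transcripts than those labelled endocardial. Of 6 endocardial markers, 4 were called higher. The mean log2 CPM of 12 pluripotency markers was 1.59 to 3.55 in the endocardial and 3.74 to 6.03 in the endothelial libraries, highest in library F. By edgeR, 2 of these 12 were called lower in the endocardial group (7 by DESeq2, 9 by limma, 10 at an unadjusted p under 0.05). Of 8 epithelial markers, 2 were called lower (6 by DESeq2, 5 by limma, 6 unadjusted), and 4 of 6 tested neural ectoderm markers were called lower by each tool. Of 8 blood markers, 1 was called higher (3 by DESeq2 and by limma, 3 unadjusted). EdgeR called 0 of 7 cardiomyocyte markers (1 by DESeq2 and by limma, 4 unadjusted) and 0 of 8 mural markers (0 by DESeq2 and by limma, 1 unadjusted). All 7 cardiomyocyte markers lay above 0, with a median log2 fold change of 0.99. Of the 8 mural markers 7 lay above 0, with a median of 0.42. In bulk RNA, fewer cells of a type and less RNA per cell cannot be told apart. Libraries G and H stood apart from the others in 12 dissociation stress markers such as Fos, Jun, Egr1 and Atf3. Of these markers, Fos, Fosb, Egr1, Junb and Ier2 are also on the list of ERK-responsive transcripts used below. The summed level of those 12 was 2976 CPM in G against 536 to 1010 CPM in the other endocardial libraries, and 2879 CPM in H against 438 to 1080 CPM in the other endothelial libraries.

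The comparison asks which of these feedback genes differ between cells labelled endocardial and cells labelled endothelial. Of the 31 genes, 27 had enough counts to be tested. Dusp2 was called higher in the endocardial libraries and 0 members were called lower (edgeR's quasi-likelihood test, adjusted p below 0.05 over 13817 genes). Over all genes 2.58% were called, 1.42% higher and 1.16% lower, and a single call among 27 genes is no result about the set. At an unadjusted p under 0.05 there were 5 members, against 14.6% of all genes. The median log2 fold change of the 27 was 0.07, beside 0.01 over all genes, with 16 members above 0 and 11 below. The groups did not overlap for 3 tested members (Dusp2 and Dusp3 higher, Dusp18 lower), where 9.76% of all tested genes did not overlap (4.42% higher, 5.33% lower). Only Dusp2 differed at least 2-fold, as did 7.43% of all genes. Summed over the 31 genes, the level was 689.8 to 986.8 CPM in the endocardial and 675.1 to 927.5 CPM in the endothelial libraries.

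**Figure D1:**
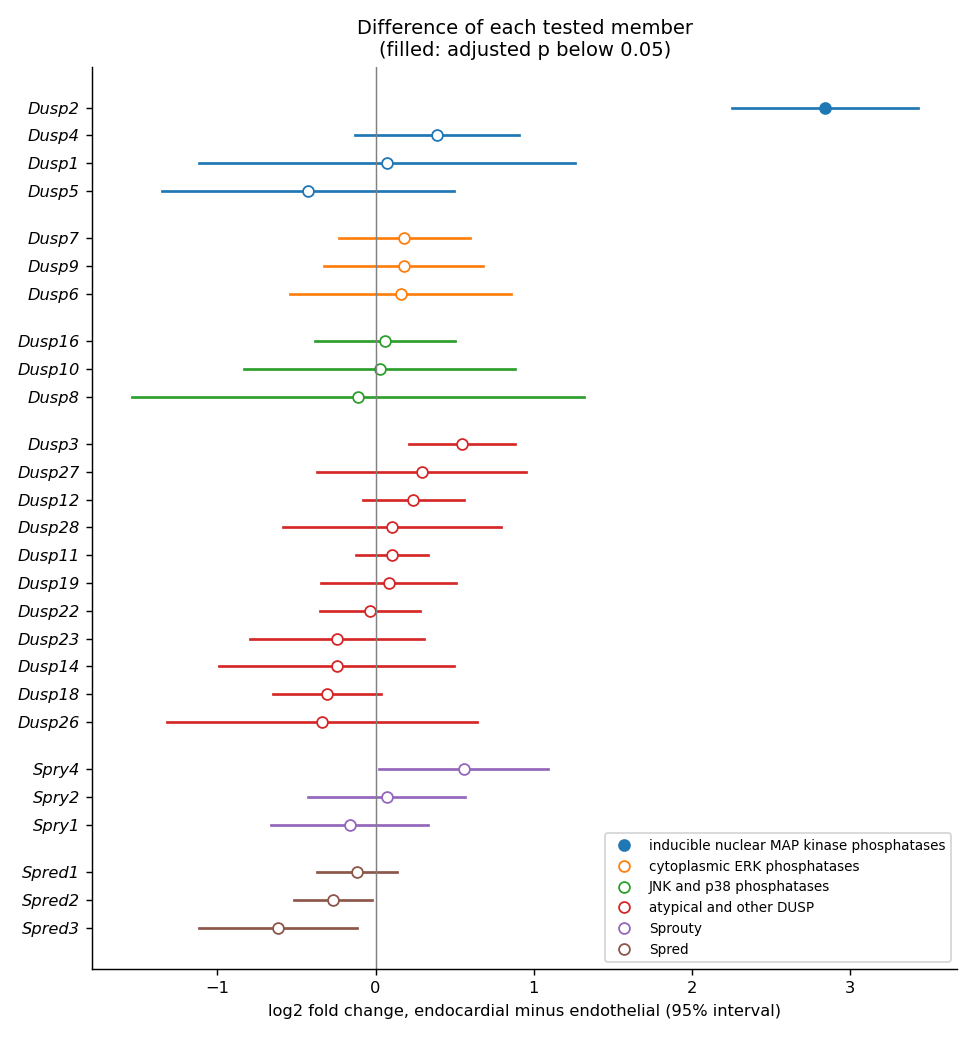
Log2 fold change of each of the 27 tested members, endocardial minus endothelial, with its 95% interval from edgeR's quasi-likelihood fit, grouped and coloured by class; a filled point marks an adjusted p below 0.05. Dusp2 stands alone at 2.84, and the other 26 members lie between -0.62 (Spred3) and 0.56 (Spry4).

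Dusp2 codes for a nuclear phosphatase of ERK and p38 that is induced by stimulation and is best known from activated lymphocytes and macrophages. The gene lies on chromosome 2 (GRCm38, 127336159 to 127338376, protein-coding). It had 76, 80, 112 and 101 counts in the endocardial libraries A, C, E and G, against 18, 7, 14 and 15 counts in the endothelial libraries B, D, F and H. Scaled to library size, these were 9.81, 8.37, 12.0 and 12.6 CPM in the endocardial libraries, against 1.60, 1.02, 1.46 and 1.79 CPM in the endothelial libraries. The lowest endocardial library lay well above the highest endothelial one. The mean was 10.7 ± 1.97 CPM in endocardial and 1.47 ± 0.328 CPM in endothelial libraries (SD, n = 4 each), a 7.16-fold difference. On the log2 scale the difference was 2.84, with an SE of 0.26, a 95% interval of 2.25 to 3.43 and an adjusted p of 0.000357, the 10th largest increase among the 13817 genes. The call held in all 8 fits that left out 1 library. Without the 2 libraries rich in stress markers, G and H, Dusp2 had a log2 fold change of 2.86 (adjusted p = 0.00746). The endothelial markers moved in the same direction over the same libraries, with a median log2 fold change of 2.02. All 8 blood markers lay above 0 too, with a median of 1.32, where 52.5% of all tested genes lay above 0. So did all endocardial markers (median 1.38) and all tested cardiomyocyte markers (0.99). The pluripotency, epithelial and neural ectoderm lists had medians below 0. By library, the blood markers were highest in A and in B, and Dusp2 in G and in H. The part of any of these lists in the Dusp2 difference was not tested.

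The 3 other inducible nuclear phosphatases did not share the Dusp2 pattern of 2 separate groups. Dusp4, which acts on ERK, JNK and p38 in the nucleus, had 46.2, 60.7, 51.8 and 88.6 CPM in libraries A, C, E and G, against 37.5, 43.1, 42.8 and 65.9 CPM in B, D, F and H. The groups overlapped, with the highest value of each in G and in H. The log2 fold change of Dusp4 came to 0.39, with a 95% interval of -0.13 to 0.90 (SE 0.23, adjusted p = 0.52). The level was higher in the endocardial library of every pair of neighbouring letters, and a block of such pairs, which no label gives, called Dusp4 (log2 fold change 0.38, SE 0.086, adjusted p = 0.0348). Dusp1, an immediate early phosphatase of p38, JNK and ERK, had 35.0, 45.8, 20.1 and 109.8 CPM in the endocardial libraries A, C, E and G, against 33.2, 49.6, 28.3 and 89.8 CPM in the endothelial libraries B, D, F and H. Within the endocardial group its highest value was 5.46 times its lowest, and within the endothelial group 3.18 times. With that spread its log2 fold change of 0.07 carried a 95% interval of -1.12 to 1.26, which takes in a 2-fold difference in either direction (adjusted p = 0.975). Dusp5, a nuclear phosphatase specific for ERK, had 5.16, 7.22, 6.78 and 20.1 CPM in the endocardial libraries, against 9.72, 10.95, 13.4 and 18.7 CPM in the endothelial libraries. Endocardial libraries A, C and E lay below every endothelial value, while G lay above them. The log2 fold change of Dusp5 was -0.43, with a 95% interval of -1.35 to 0.50 (SE 0.41, adjusted p = 0.719). Without library G it was -1.02 (adjusted p = 0.131, the lowest over all alternatives, which reached 0.887).

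Levels of different genes were compared only per kilobase of exon. Of the summed CPM per kilobase of the 4 inducible nuclear phosphatases, Dusp2 made up 14.2%, 9.70%, 17.8% and 7.87% in endocardial libraries A, C, E and G, against 2.82%, 1.43%, 2.41% and 1.502% in endothelial libraries B, D, F and H. Dusp4 was the largest component on average, at 49.2% ± 6.54 in endocardial and 46.0% ± 4.86 in endothelial libraries (SD, n = 4 each). Dusp5 held 6.07% to 10.2% of the sum in the endocardial libraries and 12.4% to 17.8% in the endothelial ones. The shares of a library add up to the whole and so depend on each other. The part of Dusp2 in the Dusp5 shares was not tested. In CPM the groups overlapped for Dusp5. These shares use the same counts as the differences above and are given as a description.

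**Figure D2:**
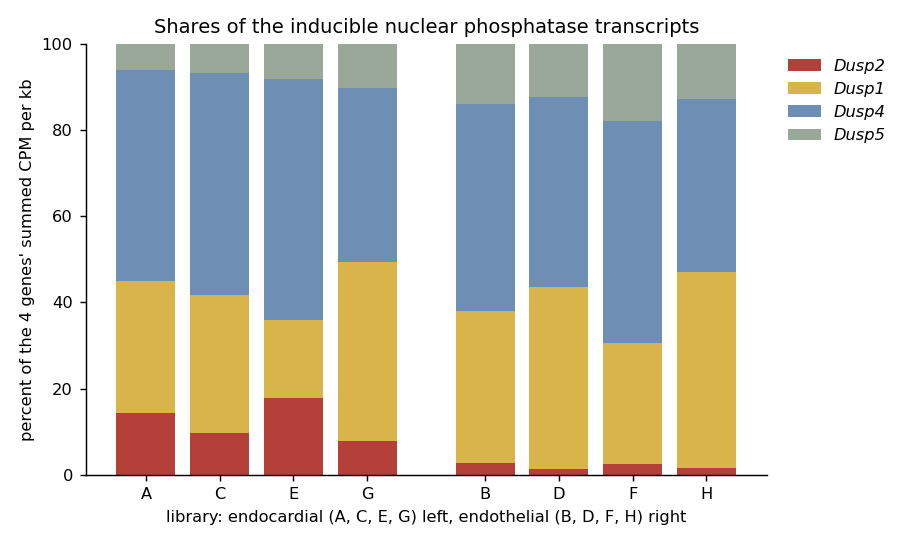
Stacked bars show the percentage of the summed CPM per kilobase of Dusp2, Dusp1, Dusp4 and Dusp5 in each library, endocardial libraries on the left and endothelial libraries on the right. The Dusp2 segment spans 7.87% to 17.8% in the endocardial libraries and 1.43% to 2.82% in the endothelial ones.

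Among phosphatases that act on ERK in the cytoplasm, 0 of 3 were called by edgeR (0 also at an unadjusted p under 0.05, and 0 by DESeq2 and by limma), and all 3 had log2 fold changes between 0.16 and 0.18. Dusp9 is known in mouse embryonic stem cells as a restraint on ERK. It had the highest level per kilobase of all members with a known exon length, at 41.8 CPM per kilobase in endocardial and 37.0 in endothelial libraries. By library it had 78.2, 123.5, 132.7 and 120.4 CPM in the endocardial group, against 72.1, 117.3, 79.4 and 133.7 CPM in the endothelial group. The lowest value of each group was in A and in B, and library F, highest in pluripotency markers, was among the low endothelial values. Dusp6, an ERK phosphatase induced by ERK itself, had 30.3, 49.0, 44.3 and 77.6 CPM in the endocardial libraries, against 28.9, 47.3, 38.3 and 66.2 CPM in the endothelial libraries. Both groups ran in the same order by neighbouring letters, lowest in A and B and highest in G and H. The difference of Dusp6 was 0.16 on the log2 scale (95% interval -0.54 to 0.85), and it turned to -0.11 without library G. Dusp7, a close relative of Dusp6, averaged 24.1 ± 5.77 CPM in endocardial and 21.3 ± 3.02 CPM in endothelial libraries (SD, n = 4 each), and the 95% interval of its difference was -0.23 to 0.59.

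The phosphatases that prefer JNK and p38 had 0 of 3 calls by edgeR (0 also at an unadjusted p under 0.05, and 0 by DESeq2 and by limma). Dusp16 had 30.5, 34.3, 31.1 and 53.8 CPM in the endocardial libraries, against 31.7, 34.8, 32.5 and 44.7 CPM in the endothelial libraries. Apart from G and H its values lay within 30.5 to 34.8 CPM. Dusp10 had 5.55, 8.37, 6.99 and 13.8 CPM in the endocardial libraries, against 7.40, 7.74, 4.49 and 14.6 CPM in the endothelial libraries. Its 95% interval of -0.83 to 0.88 on the log2 scale takes in most of a 2-fold difference either way. Dusp8, a neuronal and cardiac phosphatase of JNK and p38, is added for its values. It had 2.97, 6.18, 3.55 and 20.1 CPM in the endocardial libraries, against 6.78, 4.82, 6.15 and 17.6 CPM in the endothelial libraries. Library G was 5.66 times the median of A, C and E, and library H was 2.86 times the median of B, D and F. The log2 fold change of Dusp8 was -0.11, with a 95% interval of -1.54 to 1.32, the widest of the 27 members.

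**Figure D3:**
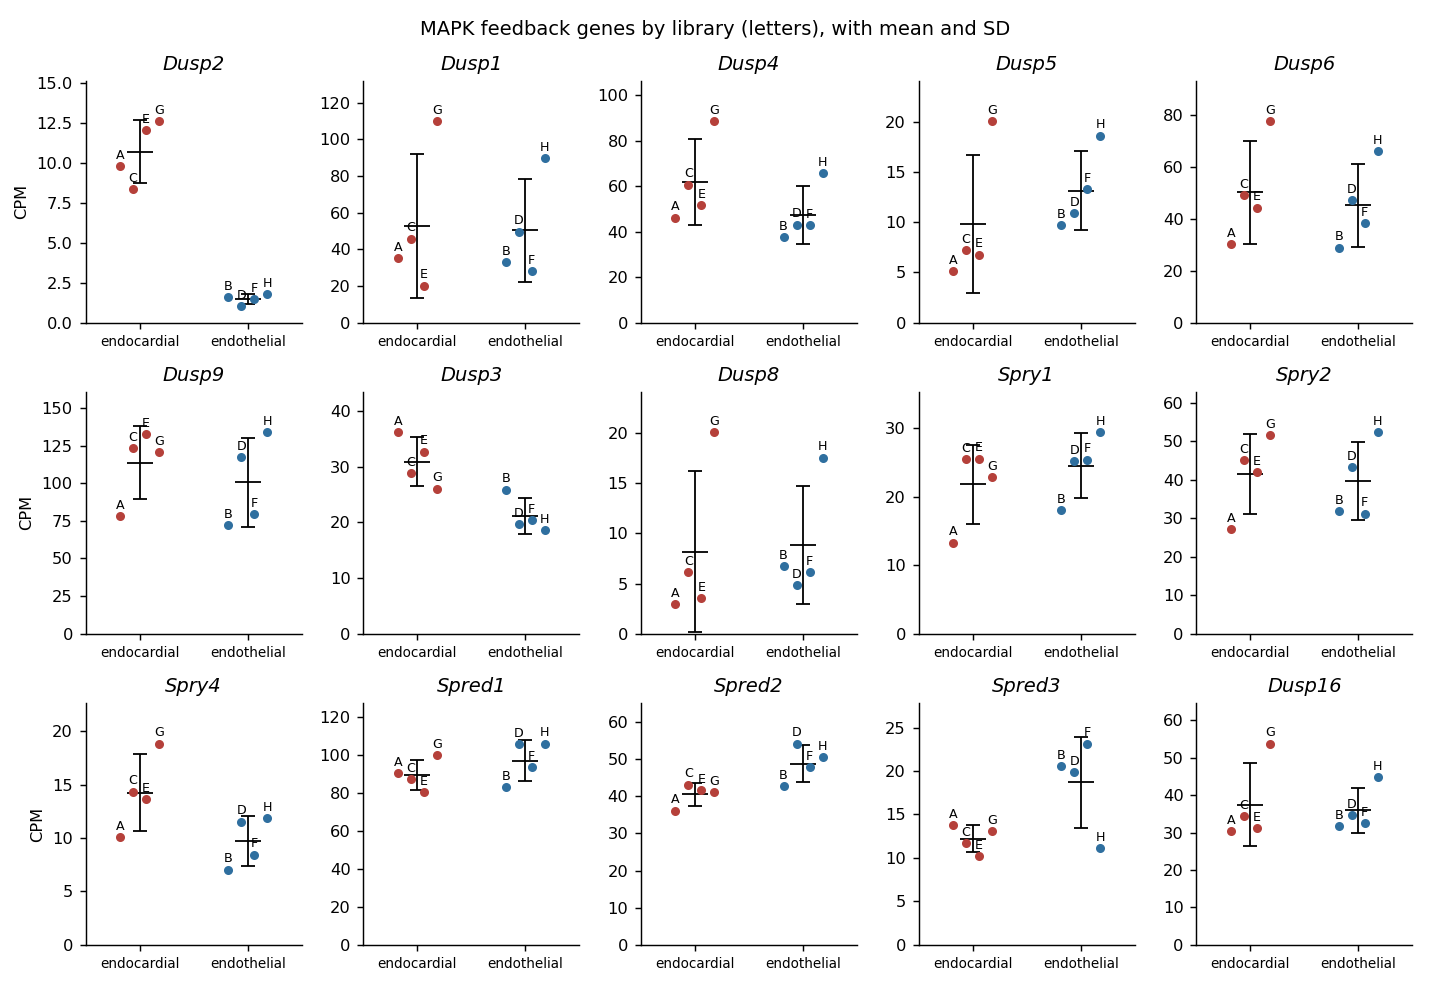
CPM of 15 members in each library (letters), with endocardial libraries on the left and endothelial on the right of each panel; horizontal marks are means and bars are SD over 4 libraries. Dusp2 separates the groups, Dusp3 does so narrowly (lowest endocardial 26.1, highest endothelial 25.9 CPM), and most others are highest in G and in H.

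The remaining 14 DUSP genes are small or atypical members, several of which act on substrates other than MAP kinases. Of these, 11 were tested and edgeR called 0, with 1 at an unadjusted p under 0.05 and 1 called by DESeq2 and by limma. That one was Dusp3, which dephosphorylates ERK and JNK in cultured cells and is singled out here after its values were seen. It had 36.1, 28.8, 32.7 and 26.1 CPM in the endocardial libraries, against 25.9, 19.7, 20.3 and 18.7 CPM in the endothelial libraries. The groups were apart, though G and B nearly touched. The log2 fold change of Dusp3 was 0.55, with a 95% interval of 0.21 to 0.88 (SE 0.15, adjusted p = 0.0957). DESeq2 called it (adjusted p = 0.0417), as did limma (adjusted p = 0.0294) and edgeR without library B (adjusted p = 0.0495). Over all alternatives its adjusted p ran from 0.0131, with the block of neighbouring letters, to 0.245. Dusp18, found in mitochondria in other work, was the one tested member with all endocardial values below all endothelial ones, at 8.26 to 9.98 CPM in endocardial against 10.5 to 11.8 CPM in endothelial libraries (log2 fold change -0.31, 95% interval -0.65 to 0.03, adjusted p = 0.41). It too is named for its values. Dusp11, which removes phosphates from RNA, was the most abundant of this class per kilobase, at 12.3 CPM per kilobase in endocardial and 11.44 in endothelial libraries. It had 120.8, 106.3, 105.4 and 98.1 CPM in the endocardial libraries, against 109.6, 94.6, 103.8 and 92.7 CPM in the endothelial libraries. The highest was only 1.23 times the lowest in endocardial and 1.18 times in endothelial libraries, and the 95% interval of the difference was -0.13 to 0.33. Dusp12, whose yeast relative takes part in ribosome assembly, had 16.4, 18.003, 21.6 and 19.3 CPM in the endocardial libraries, against 16.8, 15.9, 17.5 and 13.6 CPM in the endothelial libraries, and the groups overlapped (95% interval of the difference -0.08 to 0.56).

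Of the other atypical members, Dusp27, known from muscle as a member without phosphatase activity, averaged 13.4 ± 5.69 CPM in endocardial and 10.95 ± 1.96 CPM in endothelial libraries (SD, n = 4 each). Its lowest values were in G and H, the reverse of Dusp1. Dusp22, Dusp19, Dusp14, Dusp23, Dusp26 and Dusp28 had log2 fold changes between -0.34 and 0.10 and adjusted p of 0.737 or more. In all, 3 genes of the class and Spry3 were too low to test. Dusp21 had 0 counts in every library, which allows up to the 3-count limit given above, and Dusp13 had at most 2 and Dusp15 at most 9 counts in a library.

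Sprouty genes are feedback inhibitors of receptor tyrosine kinase signalling, and edgeR called 0 of the 3 tested (0 also by DESeq2 and by limma). At an unadjusted p under 0.05 there was 1, against 14.6% of all genes. Spry4, which in vessels limits the response to VEGF and FGF, had 10.1, 14.3, 13.7 and 18.8 CPM in the endocardial libraries, against 7.04, 11.5, 8.45 and 11.8 CPM in the endothelial libraries. The groups overlapped only through endocardial library A. The log2 fold change of Spry4 was 0.56, with a 95% interval of 0.02 to 1.09 (SE 0.24, adjusted p = 0.314, over all alternatives 0.0492 to 0.546). The lowest of these, a call, came from the block of neighbouring letters. Spry2, the Sprouty gene with the highest level per kilobase at 19.9 CPM per kilobase in endocardial and 19.0 in endothelial libraries, had 27.1, 45.1, 42.0 and 51.6 CPM in the endocardial group, against 31.7, 43.2, 31.2 and 52.3 CPM in the endothelial group. The ranges of the groups were nearly the same, and the 95% interval of its difference was -0.42 to 0.57. Spry1, which acts in kidney and vessel development, had 13.3, 25.5, 25.6 and 22.8 CPM in the endocardial libraries, against 18.01, 25.3, 25.5 and 29.4 CPM in the endothelial libraries. Its lowest values, in A and B, were those of neighbouring letters again (log2 fold change -0.16, 95% interval -0.66 to 0.33, adjusted p = 0.816). Spry3 had 3, 4, 4 and 0 counts in the endocardial libraries, against 5, 5, 12 and 6 counts in the endothelial libraries, too few to test.

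Spred proteins bind Ras and recruit the Ras-inactivating protein neurofibromin to the membrane. All 3 had negative log2 fold changes, also under each scaling tried, where 6569 of all 13817 tested genes lay below 0. EdgeR called 0 of the 3 (0 also by DESeq2 and by limma). At an unadjusted p under 0.05 there were 2, against 14.6% of all genes. Counts among 3 genes are no result about the class. Spred3 had 13.8, 11.7, 10.2 and 13.1 CPM in the endocardial libraries, against 20.6, 19.9, 23.2 and 11.1 CPM in the endothelial libraries. Endothelial libraries B, D and F lay above every endocardial value and H lay among them. The log2 fold change of Spred3 was -0.62, with a 95% interval of -1.11 to -0.12 (SE 0.22, adjusted p = 0.217). Without library H it was called, at -0.80 (adjusted p = 0.039), and over all alternatives the adjusted p reached 0.417. Over the same endothelial libraries B, D, F and H, the mean log2 CPM of the 8 epithelial markers was 4.798, 4.997, 5.967 and 5.54, against 3.59 to 4.42 in the endocardial libraries. The same mean over the 6 tested neural ectoderm markers was 4.18, 4.47, 4.56 and 3.78, against 2.30 to 3.02 in the endocardial libraries. By gene, Sox1, Nes and Fezf2 were lowest in H of the endothelial libraries, while Pax6, Sox3 and Ncam1 were not. The part of either list in the difference was not tested. Spred2 had 36.1, 43.1, 41.6 and 41.2 CPM in the endocardial libraries, against 42.6, 54.2, 47.8 and 50.6 CPM in the endothelial libraries. The groups met only where endothelial library B lay below endocardial library C (log2 fold change -0.27, 95% interval -0.51 to -0.02, adjusted p = 0.295). Spred1, whose loss in people causes a disorder related to neurofibromatosis, was the most abundant Spred gene per kilobase, at 13.2 CPM per kilobase in endocardial and 14.3 in endothelial libraries. It had 90.4, 87.3, 80.4 and 99.8 CPM in the endocardial libraries, against 83.0, 105.6, 93.6 and 105.9 CPM in the endothelial libraries, with a 95% interval of the difference of -0.37 to 0.14.

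Libraries G and H held the highest level of many members. In 13 of the 27 tested members the highest endocardial library was G and the highest endothelial library was H, a pattern found in 14.6% of all tested genes. These were Dusp1, Dusp2, Dusp4, Dusp5, Dusp6, Dusp8, Dusp10, Dusp14, Dusp16, Dusp26, Spred1, Spry2 and Spry4. Library G exceeded the median of A, C and E by a factor of 3.14 for Dusp1, 2.96 for Dusp5, 1.75 for Dusp6, 1.71 for Dusp4 and 1.28 for Dusp2. Library H exceeded the median of B, D and F by a factor of 2.71 for Dusp1, 1.70 for Dusp5, 1.73 for Dusp6, 1.54 for Dusp4 and 1.23 for Dusp2. Among the 4 inducible nuclear phosphatases, G and H stood out least in Dusp2. In Dusp7 the values of G and H were 0.709 and 0.748 times those medians, in Dusp3 0.798 and 0.917 times and in Spred2 0.989 and 1.06 times. At the low end, 8 members were lowest in A and in B, among them Dusp6, Dusp9, Spry1 and Spry4, where 14.9% of all tested genes were. The stress markers were likewise highest in G and H. So were the ERK-responsive transcripts, a list that shares genes with the stress markers. Their summed level was 2285 CPM in G against 777 to 1183 CPM in the other endocardial libraries. In H it was 2260 CPM, against 758 to 1251 CPM in the other endothelial libraries. The blood markers were highest in A and B, at a summed 1393 CPM in A against 527 to 745 CPM in the other endocardial libraries, and 1530 CPM in B against 215 to 306 CPM in the other endothelial libraries. The part of any of these lists in the member levels was not tested. Of the 10 members of the G and H group with a promoter entry, 4 held the TGACG core shown above for Dusp1 (Dusp1, Dusp5, Dusp8 and Dusp16), against 3 of the 12 other tested members with an entry. These groups were formed after the values were seen, and the counts are a description.

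**Figure D4:**
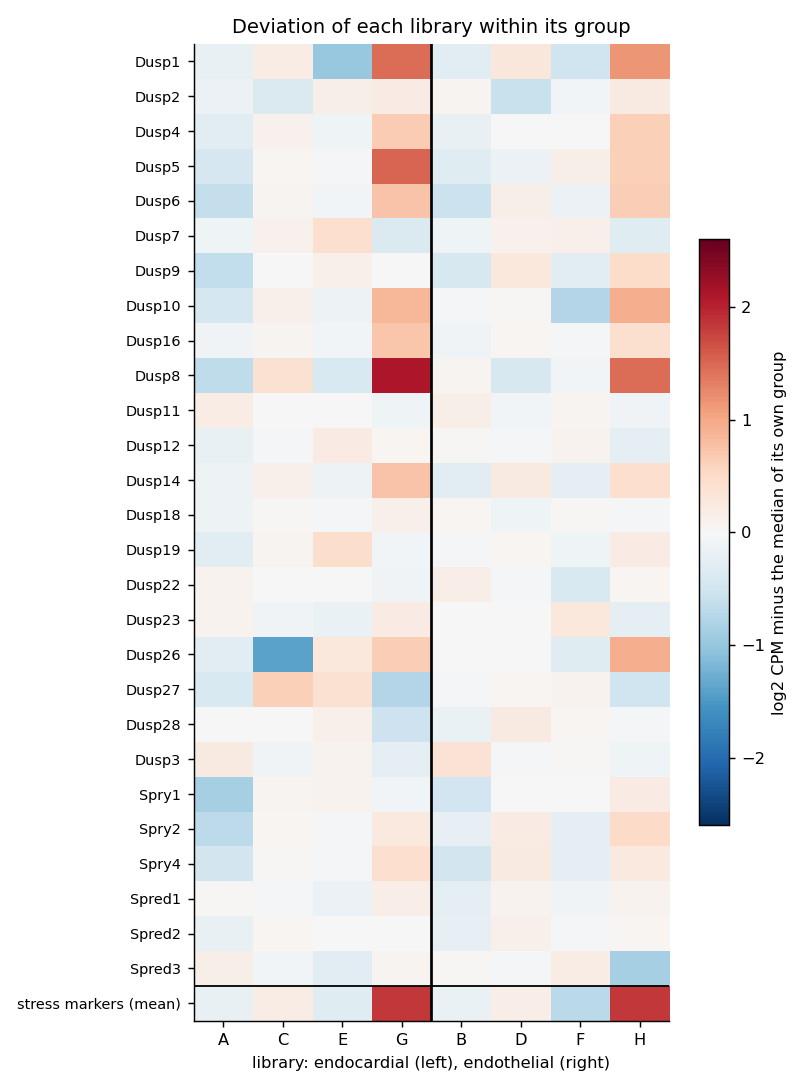
Log2 CPM of each tested member in each library minus the median of that library's own group, with endocardial libraries left of the line and endothelial right of it; the bottom row shows the mean of the 12 dissociation stress markers in the same way. Red cells under G and H show members highest there, with Dusp8 furthest above its group in both, while Dusp27 and Dusp7 are lower there.

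The genes around this feedback loop were taken from 6 lists. Among 9 tested FGF ligands and receptors, 1 was called higher and 1 lower, with a list median log2 fold change of -0.0031. At an unadjusted p under 0.05 there were 3 of these 9, against 14.6% of all genes. Fgf3, a ligand of early embryos, averaged 35.3 ± 12.2 CPM in endocardial and 10.7 ± 4.27 CPM in endothelial libraries (SD, n = 4 each, adjusted p = 0.0323). Fgf4, the ligand of pluripotent cells, averaged 0.923 ± 0.971 CPM in endocardial and 12.1 ± 11.3 CPM in endothelial libraries (adjusted p = 0.0441). Library F held 28.8 CPM of Fgf4, and without it the endothelial mean was 6.52 ± 2.33 CPM (SD, n = 3) and the log2 fold change -2.80, in place of -3.67. Fgfr2 and Fgf10 were not called, at log2 fold changes of -0.40 and 0.25. Of 13 other receptor tyrosine kinase genes, edgeR called 4 higher (Tie1, Flt4, Flt1 and Kdr, all receptors of vessels) and 1 lower (Erbb3). Over all tested genes it called 1.42% higher and 1.16% lower. Limma called the same genes of this list, and DESeq2 called Met lower besides. The median of the 13 was 0.15, with 6 at an unadjusted p under 0.05. Kdr and Tie1 are also among the endothelial markers counted above, and Fgf4 is among the pluripotency markers. Erbb3 had 71.9 CPM in library F, and its log2 fold change was -2.51, or -1.68 without F (adjusted p = 0.00503). Kdr, the main VEGF receptor, averaged 611.7 ± 138 CPM in endocardial and 242.0 ± 86.2 CPM in endothelial libraries (adjusted p = 0.0347). The calls of Tie1, Flt1 and Flt4 held in all 17 alternatives. Those of Fgf3, Fgf4, Erbb3 and Kdr were lost without single libraries. Fgf3 was lost without A, C, D, E or H (adjusted p up to 0.106) and Fgf4 without A, C, D, F, G or H (up to 0.132). Erbb3 was lost without A, C, D, E or G (up to 0.125) and Kdr without A, B, C, D, E or G (up to 0.0989).

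Over all tested genes 2.58% were called, against 0% in the Ras to ERK list and 0% in the JNK and p38 list. It was 8.33% for the list named other inhibitors and 5.56% for the ERK-responsive transcripts, 1 gene each. Of 19 genes of the cascade below the receptors, edgeR called 0 (1 at an unadjusted p under 0.05, and 0 by DESeq2 and by limma) and the median was 0.12. The smallest p-values belonged to the scaffold gene Ksr1 (log2 fold change 0.60, adjusted p = 0.224, called with the block of neighbouring letters), Shc1 (0.31), Mapk3 (0.26) and Grb2 (0.22). Of 10 tested genes of the JNK and p38 cascade, edgeR called 0 (1 at an unadjusted p under 0.05, 1 by DESeq2 and 0 by limma), with Mapk13 at -2.45 (adjusted p = 0.0754) and a median of 0.02. Library F held 14.4 CPM of Mapk13, against 2.77 ± 0.394 CPM over the other 3 endothelial libraries (SD), and without F the log2 fold change was -1.43 (adjusted p = 0.0558). Among the 12 genes on the list named other inhibitors of the pathway, edgeR called Rasa3, a Ras and Rap inactivating protein, higher. Rasa3 averaged 85.8 ± 3.80 CPM in endocardial and 53.9 ± 9.22 CPM in endothelial libraries (adjusted p = 0.0275 by edgeR). Its call was lost without A, C, D, E, G or H (adjusted p up to 0.0871). At an unadjusted p under 0.05 the list held 5 genes, or 41.7%, against 14.6% of all genes. Rasa3 was above 0 among these, and Flrt3, Lrig3, Il17rd and Lrig1 were below. The list is named for most of its genes, and whether Flrt3 inhibits the pathway was not tested. Of that list Flrt3 (-0.92, adjusted p = 0.0791), Lrig3 (-0.42) and Il17rd (-0.36), the last a membrane inhibitor of FGF signalling, were not called by edgeR, while DESeq2 called Flrt3 and Lrig3 lower and limma Flrt3. On the list of 18 ERK-responsive transcripts, whose response to ERK was not tested here, 1 was called higher and 0 lower. It was Elk3, an ETS factor of endothelium (adjusted p = 0.00875). Elk3 averaged 73.1 ± 5.47 CPM in endocardial and 33.2 ± 7.96 CPM in endothelial libraries. The Elk3 call held without each single library and missed without G and H together (adjusted p = 0.0595). Phlda1 (0.81), Etv5 (-0.53) and Myc (0.66) were not called by edgeR, while limma called Phlda1 higher and a block of neighbouring letters called all 3 genes. The list median was 0.13, with 3 genes at an unadjusted p under 0.05. The FGF target Etv5 was highest in library F, at 76.2 CPM, whereas Dusp6 and Spry4 were not.

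**Figure D5:**
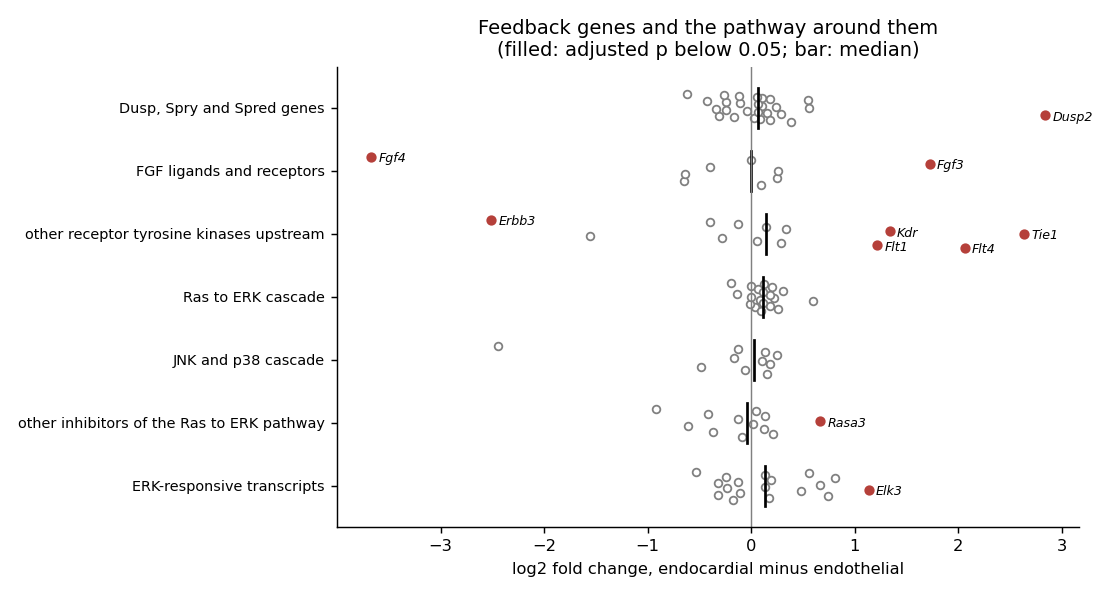
Log2 fold changes, endocardial minus endothelial, of the tested Dusp, Spry and Spred genes and of 6 pathway lists; each point is a gene, filled and named where its adjusted p is below 0.05, and the black bar is the median. Medians lie between -0.04 (the list named other inhibitors) and 0.15 (other receptor tyrosine kinases), and the named genes fall mainly among ligands and receptors.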

How the data were processed

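The 8 libraries (4 endocardial, 4 endothelial) were analysed. The values deposited by the authors are estimated counts per gene symbol, already whole numbers. Salmon, DESeq2 and build mm10 are named in the submitters' processing notes, per the labels. Their versions and roles, the transcript set and any filter are not stated there. Salmon divides reads that fit several transcripts by a model, so near-identical genes are uncertain.

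From these counts, genes passing filterByExpr (minimum count 10, minimum total 15) were kept, then TMM-scaled and fitted in edgeR 4.0.16 (R 4.3.3) with the robust quasi-likelihood F-test, all 8 libraries in 1 fit without a block. P-values were Benjamini-Hochberg adjusted over 13817 genes. The SE is the size of the log2 fold change over the root of F, and 95% intervals use the degrees of freedom of the test. CPM are counts scaled to 1000000 by the TMM-scaled total of tested genes. Levels per kilobase use summed exon lengths of GENCODE M21 (GRCm38, the assembly of mm10), which holds 30 of the 31 symbols and not Spry3. List levels are mean log2 CPM (prior count 2) of tested genes, or CPM summed over all measured ones. Promoters are RefSeq entries (GRCm38.p6), matched for 23 members.

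Members shown by library were those called, those at least 2-fold apart without overlap, the 2 most abundant per kilobase of each class, and Dusp1, Dusp2, Dusp4, Dusp5, Dusp6, Spry1, Spry2, Spry4, Spred1, Spred2 and Spred3. In each pathway list, called genes and up to 4 with the smallest p were named. Members, lists and tests were chosen with earlier results of these data known. Alternatives were DESeq2 1.42.0, limma 3.58.1 (voom with sample weights), 2 other scalings, 2 other filters, no robust estimation, a block of neighbouring letters and leaving out each library. Leaving out G and H together was added after seeing the data. The procedure was tested on simulated data.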

Additional observations from a re-analysis of the deposited data

Results flagged for a closer look

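The gap between the extreme library and its nearest neighbour, as a share of the group's range, was examined for the 27 tested members in each group of 4 libraries against Dixon's 95% critical value. Chance gives about 1 in 20 such groups, and 3 of 54 passed. In endocardial libraries, library G was far from the others for Dusp5 (20.1 CPM, share 0.862) and for Dusp16 (53.8 CPM, share 0.834). In endothelial libraries, library H was far from the others for Dusp8 (17.6 CPM, share 0.847).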

How the results depend on the processing

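Dusp2 kept its direction and its call in all 17 alternatives, with log2 fold changes of 2.72 to 2.93 and adjusted p up to 0.00746. The number of genes called over all tested was 356 (196 higher, 160 lower) by edgeR. It was 860 by DESeq2 (330 higher, 530 lower), 975 by limma voom (410 higher, 565 lower), 1204 with a block of neighbouring letters (505 higher, 699 lower) and 147 without libraries G and H (92 higher, 55 lower). Leaving out 1 library gave 135 to 457 calls (99 to 230 higher, 35 to 227 lower), with 189, 157, 138, 135 and 153 calls without A, C, D, E or G. Members called higher numbered 1 by edgeR, 2 by DESeq2 and limma (Dusp2 and Dusp3), 4 with the block (Dusp2, Dusp3, Dusp4 and Spry4) and 1 to 2 when 1 library was left out. Members called lower numbered 0 in edgeR's fit, and 0 to 1 when 1 library was left out (Spred3, without H). Pathway genes called were 7 higher and 2 lower. The higher ones numbered 3 without G and H and 4 to 7 when 1 library was left out. The lower ones numbered 6 by DESeq2, 7 with the block, 0 without a low-count filter, 0 without G and H, and 0 to 3 when 1 library was left out.

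Changes of sign were seen for members whose 95% interval includes 0, and the cause was not tested. Dusp1 turned to -0.13 with limma, -0.044 with the block and -0.13 without G and H. Dusp10 turned to -0.016 with upper-quartile scaling, Dusp16 to -0.011 with limma and -0.045 without G and H, and Dusp22 to 0.029 without G and H. When 1 library was left out, the log2 fold change ran from -0.56 to 0.50 for Dusp1, -0.27 to 0.40 for Dusp10, -0.16 to 0.17 for Dusp16 and -0.083 to 0.17 for Dusp19. It ran from -0.16 to 0.054 for Dusp22, -0.11 to 0.40 for Dusp6, -1.04 to 0.45 for Dusp8 and -0.047 to 0.23 for Spry2.

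No label pairs the libraries. Deviations from the group means correlated for A with B (r = 0.555), C with D (0.324), E with F (0.337) and G with H (0.611), and at most 0.0533 for other pairs, a hint from the data and not from the design. At the depth of these libraries, Dusp13, Dusp15, Dusp21 and Spry3 could not be compared.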
